A study of Saccharomyces cerevisiae with 4 samples.

Results

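Reductive iron uptake in budding yeast (Saccharomyces cerevisiae) is the set of steps by which the cell reduces ferric iron at its surface and carries it inside with the help of a copper enzyme. The genes considered here were FET3, FTR1, FET4, FET5, FTH1, FRE1, FRE2, CCC2, ATX1 and SMF3, 10 genes in all. Not all belong to that route: FET4 encodes a low-affinity carrier, and the products of FET5, FTH1 and SMF3 act at the vacuole. The 10 genes were searched for by gene symbol or open reading frame among 7519 probe sets. Of the 10, 9 were measured, each by 1 probe set. FRE2 was not analysed here.

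The samples were 4 Affymetrix Yeast Genome S98 arrays of the laboratory strain BY4741, a haploid of mating type a that lacks HIS3, LEU2, MET17 and URA3 function. All cells grew in MM4 medium to mid-exponential phase and then spent 15 min in fresh medium, which held no drug in the 2 control samples and 1 g/L of quinine, an antimalarial alkaloid, in the other 2. Ethanol was the solvent of the drug and made up 0.7% of the medium by volume. Whether the control medium also held ethanol, and how much iron and copper MM4 holds, are not given in the sources used here, so an effect of quinine and one of its solvent cannot be told apart. The labels do not say that replicates were separate cultures, so the spread between them may be technical. Each gene's level is a linear signal intensity per array, and levels of different probe sets are not compared, since each probe set has its own brightness. Median signals of the arrays lay between 596.4 and 635.8. In a population of cells, fewer responding cells and less RNA per cell cannot be told apart.

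Iron reaches the yeast cell along routes that differ in affinity. In the high-affinity route, surface reductases such as Fre1 and Fre2 make ferrous iron, the multicopper ferroxidase Fet3 oxidises it again, and the permease Ftr1, bound to Fet3, carries it across the membrane. Fet3 works only when loaded with copper, which the chaperone Atx1 hands to the pump Ccc2 for delivery into the Golgi. Fet5 and Fth1 are relatives of Fet3 and Ftr1 that export iron from the vacuole, as does Smf3, a carrier of the Nramp family. Fet4 is a low-affinity carrier of ferrous iron that also takes up copper and zinc. Most of these genes are activated by the iron regulators Aft1 and Aft2 when iron is scarce.

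With quinine, 8 of the 9 genes had a higher mean signal, by 1.12-fold (ATX1) to 1.59-fold (SMF3), and FET4 was 1.74-fold lower. A log2 fold change above 0 was found for 46.7% of the 5130 genes tested. The median log2 fold change of the 9 genes was 0.34, a fold of 1.27, and that of all genes tested was -0.03. No member passed in limma, a linear model with variances shared across genes, at an adjusted p under 0.05 over all genes: 0 of 9 were called, with adjusted p values from 0.105 to 0.859. In the same fit 1 gene was called over all, 0.0195% of those tested. At an unadjusted p under 0.05 there were 3 of the 9 (SMF3, FTR1 and FET4), where 18.3% of all genes lay under that value, 6.32% with a higher and 12.0% with a lower signal.

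The 2 quinine arrays lay wholly above the 2 control arrays in 6 of the 9 genes, and wholly below them in FET4. Over all genes tested the arrays of the groups did not overlap in 49.6%, with quinine above in 19.8% and below in 29.8%. For a single gene, 2 arrays against 2 cannot give an exact two-sided permutation p below 0.333. The median of the 9 genes depended on single arrays: with control replicate 1 left out it came to 0.58, with control replicate 2 left out to 0.14 and with quinine replicate 1 left out to 0.22. Without quinine replicate 2 the median was 0.44.

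**Figure D1:**
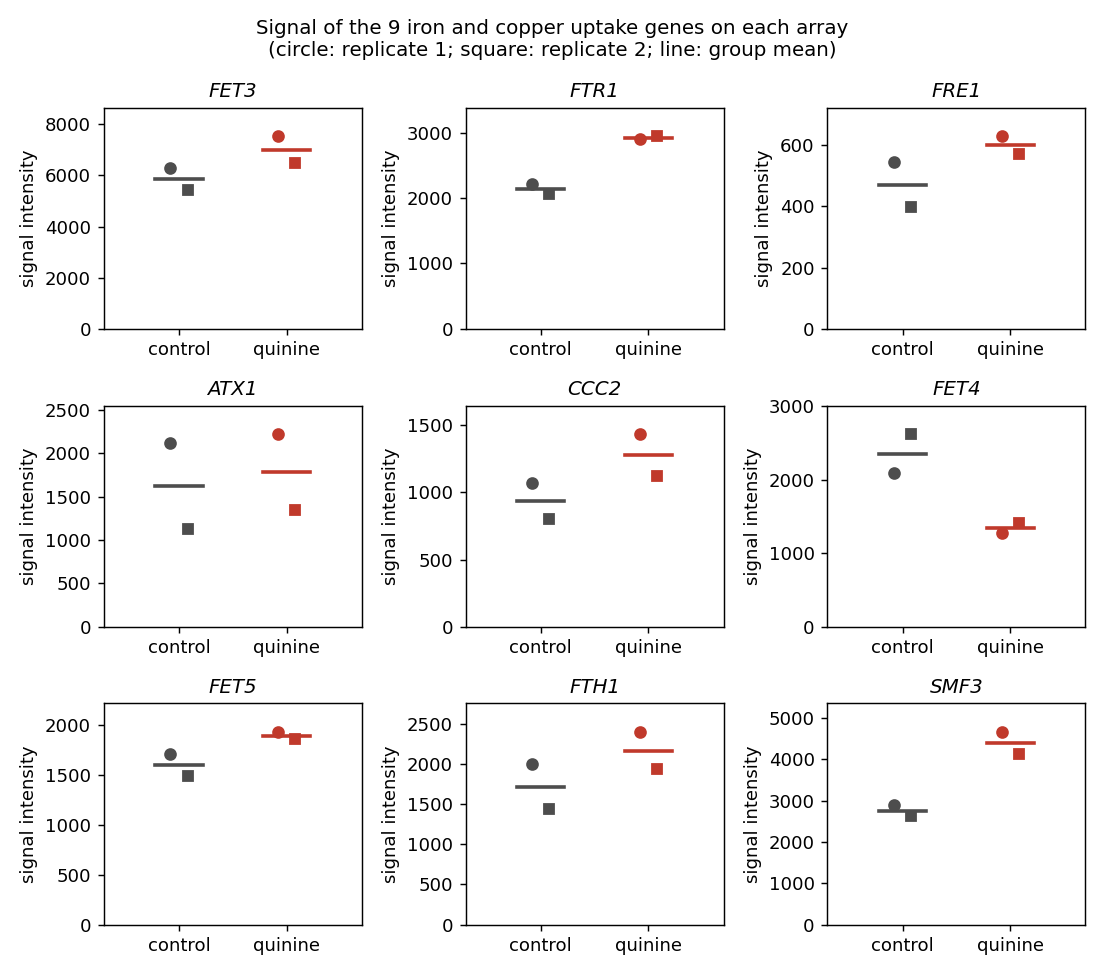
Signal intensity (linear scale from 0, arbitrary units) of the 9 genes on each of the 4 arrays, with circles for replicate 1, squares for replicate 2 and a line at each group's mean. SMF3, FTR1 and FET4 have groups set apart, while in ATX1 and FTH1 the arrays of the groups overlap.

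At the cell surface, the reductase gene FRE1 (YLR214W), whose product acts on ferric and cupric ions, read 544.3 and 397.8 in the control samples, and 628.7 and 570.1 in those given quinine. Both quinine arrays were higher, the nearest pair differing by 1.05-fold. The log2 fold change of FRE1 was 0.36 ± 0.21 (SE), a fold of 1.29 with a 95% interval from 0.903 to 1.83, and its adjusted p in limma was 0.414. Leaving out control replicate 2 gave FRE1 a fold of 1.10, and leaving out control replicate 1 one of 1.51.

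FET3 (YMR058W), the ferroxidase gene, read 6293 and 5417 without the drug, against 7529 and 6485 with it. The groups did not overlap, but the lower quinine array (replicate 2) was only 1.03-fold above the higher control array (replicate 1). Replicate 1 was the higher array in both groups, by 0.216 on the log2 scale in the controls and by 0.215 with quinine. The fold was 1.20, with a 95% interval from 0.952 to 1.50, and the adjusted p was 0.364 in limma.

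FTR1 (YER145C), which encodes the permease that forms the uptake complex with Fet3, was at 2221 and 2067 without the drug, and at 2906 and 2947 on the quinine arrays. The replicates of each group lay close together and the nearest arrays of the 2 groups differed by 1.31-fold. The control mean was 2144 ± 109 (SD, n = 2) and the quinine mean 2927 ± 28.9 (SD, n = 2), a fold of 1.37 with a 95% interval from 1.07 to 1.75. The unadjusted p of FTR1 was 0.0221 and its adjusted p 0.200 in limma. The fold of FTR1 ranged from 1.32 to 1.42 when 1 array was left out.

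The ratio of FET3 to FTR1 was compared between groups, since the proteins work as a complex. The log2 fold change of FET3 minus that of FTR1 was -0.19, and the ratio was lower on both quinine arrays (1.14 and 1.37 on the log2 scale) than on both control arrays (1.39 and 1.50). Its exact permutation p of 0.333 (two-sided) is the smallest the design allows.

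In the copper delivery step, the chaperone gene ATX1 (YNL259C) was the most variable of the 9. It read 2117 and 1126 in the control samples, and 2219 and 1342 in those given quinine, so each group held a high and a low array and the groups overlapped. Replicate 1 was the higher array in both groups, by 0.91 on the log2 scale in the controls and by 0.725 with quinine. Of all genes tested, 3.92% had a larger gap between the control arrays. The log2 fold change of ATX1 was 0.16 ± 0.37 (SE), with a 95% interval of the fold from 0.591 to 2.11 and an adjusted p of 0.859 in limma. Its direction turned without control replicate 2, where the log2 fold change was -0.30, and without quinine replicate 1, where it was -0.20. In both settings replicate 1 made up a larger share of the control arrays than of the quinine arrays.

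CCC2 (YDR270W), which encodes the copper pump that receives copper from Atx1, read 1073 and 798.9 without the drug, against 1433 and 1122 with it. Both quinine arrays were above both control arrays, the nearest by 1.05-fold. The fold was 1.37, equal to that of FTR1 at this precision, but the replicates were farther apart: the 95% interval ran from 0.930 to 2.02 and the adjusted p was 0.352 in limma. The fold of CCC2 lay between 1.18, with control replicate 2 left out, and 1.59, with control replicate 1 left out. The log2 fold changes of CCC2 and ATX1 differed by 0.29, with an exact permutation p of 0.667 (two-sided).

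**Figure D2:**
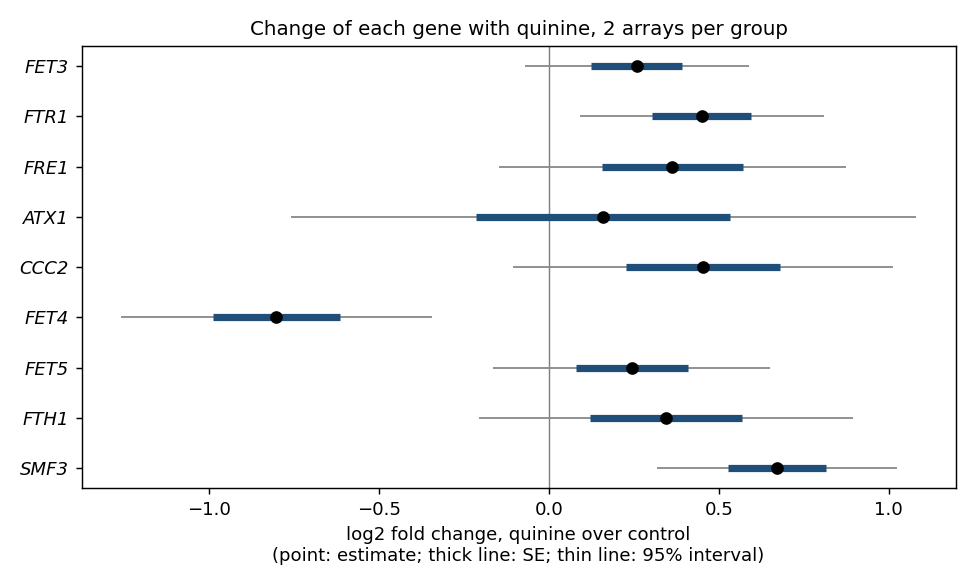
Log2 fold change of each gene, quinine over control, from the limma fit over 5130 genes (2 arrays per group), with the SE as a thick line and the 95% interval as a thin line. The intervals of FTR1, SMF3 and FET4 leave out 0, before any adjustment over genes, and that of ATX1 is the widest.

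FET4 (YMR319C), the gene of the low-affinity carrier, was the 1 member with a lower signal under quinine. It read 2088 and 2617 in the control samples, and 1275 and 1411 in those given quinine. Every quinine array was below every control array, the nearest by 1.48-fold. The control mean was 2353 ± 374 (SD, n = 2) and the quinine mean 1343 ± 95.6 (SD, n = 2). The log2 fold change of FET4 was -0.80 ± 0.19 (SE), with a 95% interval from -1.26 to -0.34, and limma gave an unadjusted p of 0.00526 (0.122 after adjustment over all genes). Among all genes tested, 3.10% had a lower log2 fold change than FET4. Its direction was the same with each array left out, with values from -0.96 to -0.64.

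FET4 is known to be repressed by Rox1, the repressor of hypoxic genes, and to be activated by the zinc regulator Zap1. ROX1 read 601.8 and 645.3 without the drug, against 579.7 and 426.0 with it, a log2 fold change of -0.33 ± 0.20 (SE) with an adjusted p of 0.456. Any part of Rox1 or Zap1 in the FET4 value was not tested.

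At the vacuole, the ferroxidase gene FET5 (YFL041W) read 1717 and 1496 in the control samples, and 1930 and 1864 in those given quinine. The groups did not overlap, the nearest arrays differing by 1.09-fold. The fold was 1.18, with a 95% interval from 0.893 to 1.57 and an adjusted p of 0.491 in limma. FET5 and its relative FET3 had log2 fold changes of 0.24 and 0.26, which differed by 0.02 (exact permutation p of 1, two-sided).

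FTH1 (YBR207W), which encodes the vacuolar permease that pairs with Fet5, was at 1997 and 1439 without the drug, and at 2393 and 1933 on the quinine arrays. The lower quinine array was below the higher control array. The log2 fold change of FTH1 was 0.34 ± 0.22 (SE), a fold of 1.27 with a 95% interval from 0.866 to 1.86, and the adjusted p was 0.473. Leaving out control replicate 2 gave a fold of 1.08, and leaving out control replicate 1 one of 1.49. The FTH1 value was 0.11 below that of its surface relative FTR1 and 0.10 above that of its partner FET5 on the log2 scale (exact permutation p of 0.667 each, two-sided, in a design that allows none below 0.333).

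SMF3 (YLR034C), whose product moves iron out of the vacuole, showed the highest value of the 9. It read 2885 and 2630 without the drug, against 4654 and 4131 with it. The groups were well apart, the nearest arrays differing by 1.43-fold. The control mean was 2757 ± 181 (SD, n = 2) and the quinine mean 4392 ± 370 (SD, n = 2), a fold of 1.59 with a 95% interval from 1.25 to 2.03. The unadjusted p of SMF3 was 0.00364 and its adjusted p 0.105 in limma. Of all genes tested, 4.05% had a higher log2 fold change than SMF3. When 1 array was left out, the fold of SMF3 ranged from 1.50 to 1.69.

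SMF3 has relatives in the Nramp family, SMF1 and SMF2, which serve manganese uptake. SMF2 read 1612 and 1565 in the control samples, and 2755 and 2668 in those given quinine, a log2 fold change of 0.77 ± 0.15 (SE) with an adjusted p of 0.0907 in limma. SMF1 read 1027 and 715.4 without the drug, against 1288 and 967.8 with it, a log2 fold change of 0.38 ± 0.25 (SE) with overlapping arrays. SMF3 differed from SMF2 by -0.10 and from SMF1 by 0.29 in log2 fold change (exact permutation p of 0.667 each, two-sided). In all, 7 pairs of partners or relatives were compared, and the unadjusted exact p values lay between 0.333 and 1, so no pair could pass.

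**Figure D3:**
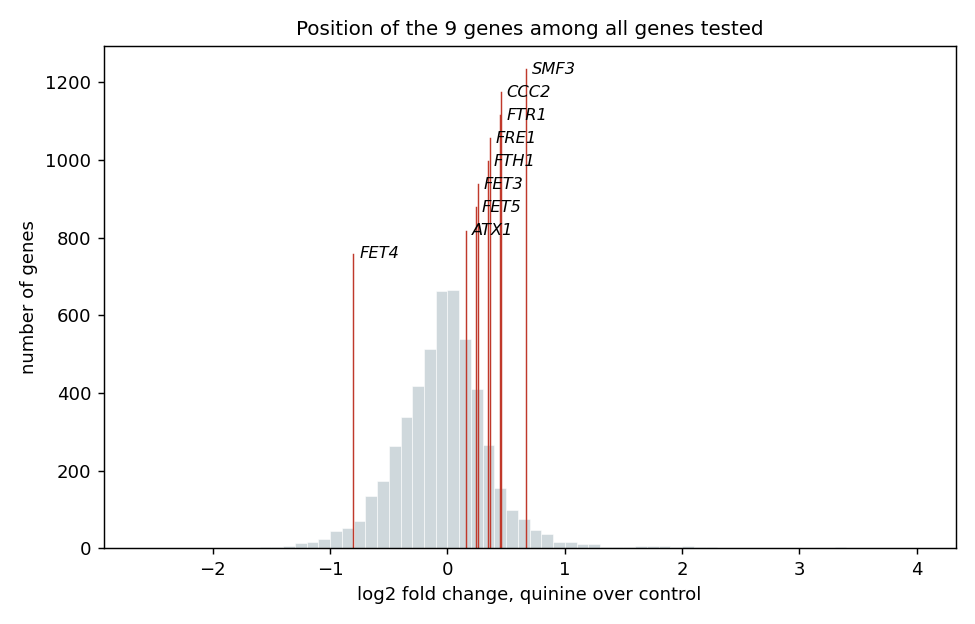
Histogram of the log2 fold changes of the 5130 genes tested, with a red line for each of the 9 genes; values beyond the ends of the axis are counted in the last bins. SMF3 lies high in the right flank, FET4 in the left tail, and the other 7 genes lie between 0.16 and 0.45.

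Among all genes tested, 95.9% had a lower log2 fold change than SMF3, 91.8% than CCC2 and 91.7% than FTR1. The shares were 88.2% for FRE1, 87.1% for FTH1, 82.0% for FET3, 80.8% for FET5 and 73.2% for ATX1. A place in the upper part of the distribution follows from a higher signal itself, since 46.7% of all genes tested lay above 0. Neighbours in this order differed by less than the larger of their standard errors.

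In the authors' deposited table, which marks 777 of 7519 probe sets, the rows of FTR1, FET4 and SMF3 were marked and those of the other 6 genes were not. No marked row of the authors' deposited table had a lower bound smaller in size than 1.2. In the authors' deposited table, the fold of FTR1 was 1.36 with bounds of 1.25 and 1.49, that of SMF3 was 1.60 with bounds of 1.38 and 1.84, and that of FET4 was -1.75 with bounds of -1.41 and -2.13, the minus sign standing for lower with quinine. Of the genes tested here, 12.7% were marked in the authors' deposited table, 4.35% as higher and 8.30% as lower. All 9 genes were called Present, that is above background, on every array per the authors' deposited table.

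**Figure D4:**
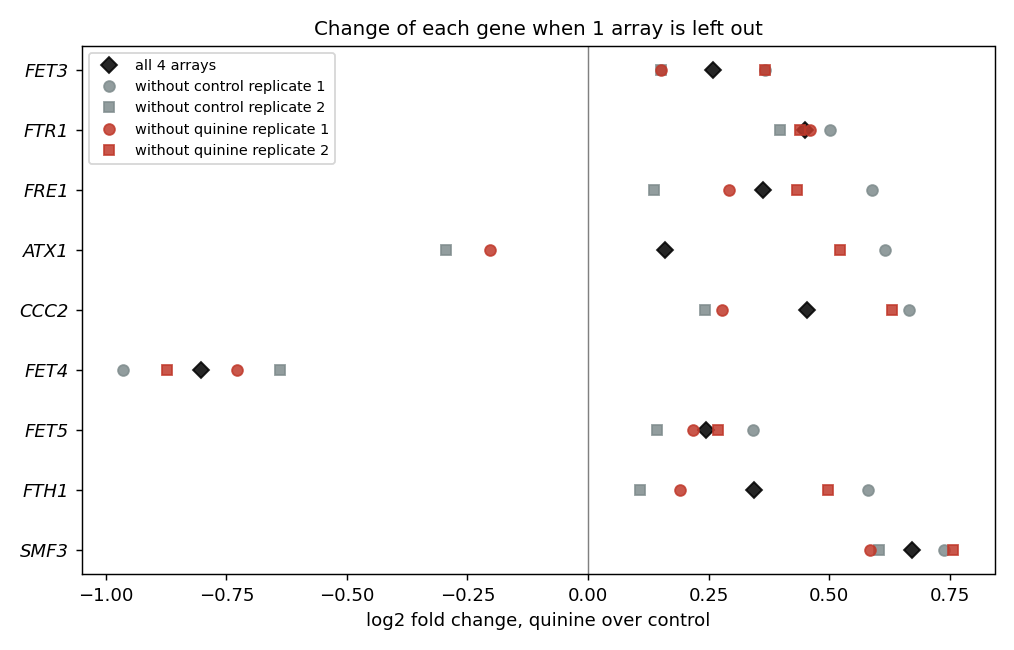
Log2 fold change of each gene with all 4 arrays (diamond) and with 1 array left out (grey for a control array, red for a quinine array). ATX1 crosses 0, while FTR1, SMF3, FET4 and the other 5 genes stay on their side of it.

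The other genes of iron and copper handling were described by role in 8 lists, with 47 of 50 genes tested. FRE5 was not analysed here, and the metallothionein genes CUP1-1 and CUP1-2 share a probe set. In these lists 34 genes were higher and 13 lower, where 46.7% of all genes tested were higher. Limma called 0 of the 47 in either direction. At an unadjusted p under 0.05 there were 7 of the 47, where 18.3% of all genes lay under that value. The number called in the lists was also 0 after quantile normalization and after centring each array on its median, as it was over all genes. The arrays of the groups did not overlap in 20 of the 47, with quinine above in 16 (34.0%, against 19.8% of all genes tested) and below in 4 (8.51%, against 29.8%). The lowest adjusted p, that of SMF2, was 0.0907.

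Among the carriers of divalent metals 8 of 8 genes were higher, and their log2 fold changes had a median of 0.36. Besides SMF1, SMF2, ZRT1 and ZRT2, the list held the vacuolar iron importer gene CCC1, the vacuolar carrier gene COT1 and the mitochondrial iron carrier genes MRS3 and MRS4. Called genes numbered 0, and the largest value was that of SMF2. In siderophore capture and transport 7 of 7 genes were higher, with a median of 0.21 and 0 called. The median was 0.12 without quinine replicate 1 and 0.31 without quinine replicate 2. There the largest value was that of SIT1, a transporter of iron-loaded siderophores, which read 1530 and 822.7 in the control samples, and 2512 and 2062 in those given quinine. The log2 fold change of SIT1 was 1.02 ± 0.32 (SE), and its adjusted p was 0.191 in limma.

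Of the other metalloreductases 4 of 5 were higher, with a median of 0.23. The vacuolar reductase gene FRE6, with the largest value, read 1865 and 1681 without the drug, against 2310 and 1973 with it, a log2 fold change of 0.27 ± 0.17 (SE). The median of this list was 0.05 without control replicate 1. Copper uptake genes and their regulator MAC1 had a median of -0.05, with 1 of 4 higher. That gene was CTR2, which encodes the vacuolar copper exporter, at 2727 and 2160 without the drug, and at 3452 and 2780 on the quinine arrays. With 1 array left out, the median of the copper uptake list ranged from -0.11 (without quinine replicate 1) to 0.08 (without quinine replicate 2).

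Genes of copper buffering and of delivery to other targets had a median of 0.09, with 3 of 5 higher, and CUP2, the copper-responsive activator of metallothionein genes, had the largest value at 0.46 ± 0.22 (SE). This median was -0.06 with control replicate 2 left out, 0.03 with quinine replicate 1 left out and 0.20 with control replicate 1 left out. Factors for copper loading and traffic of the ferroxidase had a median of 0.04, with 4 of 6 higher. The groups of arrays were apart in 0 of these 6, and in 49.6% of all genes tested. Leaving out control replicate 2 brought that median to 0.005, and leaving out control replicate 1 brought it to 0.07. The chloride channel gene GEF1 was at 0.22 ± 0.21 (SE) there. Haem use and oxygen regulation genes had a median of 0.12 with 2 of 4 higher, and the largest change in size was that of ROX1, given above, at -0.33. With 1 array left out this median ranged from -0.22 (without control replicate 2) to 0.28 (without control replicate 1). With a pseudocount of 50, which damps changes at low signals, the median of this list was 0.04.

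Among the iron regulators 5 of 8 genes were higher, with a median of 0.05. AFT1, the main activator of the uptake genes, was at 838.4 and 1011 without the drug, and at 1100 and 836.6 on the quinine arrays, with overlapping arrays and a log2 fold change of 0.06 ± 0.21 (SE). AFT2 was at -0.16 ± 0.19 (SE). Both regulators are known to act through entry into the nucleus, which an array does not measure. TIS11, whose product speeds messenger RNA decay under iron shortage, had the largest value of the list. It read 678.4 and 236.5 without the drug, against 1085 and 868.3 with it. The log2 fold change of TIS11 was 1.28 ± 0.48 (SE), with an adjusted p of 0.246 in limma. The list's median was -0.09 without quinine replicate 1 and 0.17 without quinine replicate 2.

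**Figure D5:**
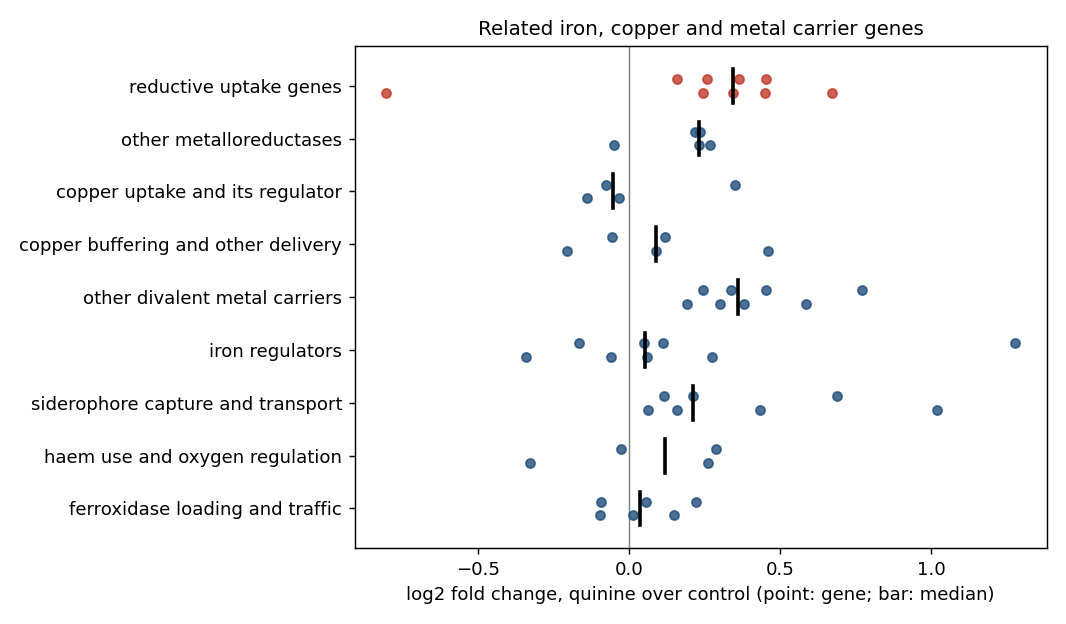
Log2 fold change, quinine over control, of the 9 member genes (red) and of 47 related genes in 8 lists (blue), 1 point per gene with a bar at the median of each list. All points of the divalent metal carriers and of the siderophore genes lie above 0, and FET4 is the lowest point.

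The genes whose pattern over the 4 arrays was closest to that of FET3 were AHA1, QNS1 and SDH1, at distances of 0.03, 0.04 and 0.04 on the log2 scale after each gene's mean was subtracted. They encode a cochaperone of Hsp90, the NAD synthetase and the flavoprotein of succinate dehydrogenase. Their log2 fold changes were 0.26, 0.27 and 0.24, beside 0.26 for FET3. With 4 arrays this is a description of likeness only.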

How the data were processed

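RNA of 4 samples was measured on 1-colour arrays. The authors deposited 1 linear signal intensity per probe set and array, and their processing notes name MAS5 with no role or version. The authors' deposited table gives the mean signal of each group, its standard error, a signed fold with bounds (all used as the authors' scores) and Present calls as a percent of the arrays in a group. How the arrays were scaled, and the build, are not given in the sources used here, and no coordinates are printed.

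An open reading frame of the RefSeq table of assembly R64 gave 1 gene to 5291 of 7519 probe sets. Those Present on at least 2 of 4 arrays were kept, the brightest per gene (80 genes had several), which left 5130 genes. Log2 signals, with no pseudocount, were compared in R 4.3.3 with limma 3.58.1 (lmFit, then eBayes with its trend option, on 2 residual degrees of freedom), with Benjamini-Hochberg adjustment over all genes. The fit was also run on simulated arrays with independent noise. That run checks the code only, since same-numbered arrays of these data were correlated. Folds compare geometric means. Intervals are at 95%. The number of arrays limits the precision.

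The members and lists were chosen with earlier results of these data known. Named genes are all members, in each list the called genes or else the largest change, the 3 genes nearest to FET3, and SMF1 and SMF2 as relatives. AFT1 and AFT2 were named after their values were seen. Promoter and protein sequences, planned at the outset, were not used here. Alternatives were other normalizations, a pseudocount, other filters and probe set rules, no variance trend, a replicate block and leaving out each array.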

Additional observations from a re-analysis of the deposited data

How the results depend on the processing

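Over 11 alternatives without a replicate block, 0 of 99 recomputed member values were called, and the lowest adjusted p, for SMF3, was 0.0620 in limma. The direction was kept in all of them except for ATX1, at -0.30 without control replicate 2 and -0.20 without quinine replicate 1. Genes called over all genes tested, 1 as reported, numbered 0 after quantile normalization, 0 after centring each array on its median, 0 without a variance trend and 2 with a pseudocount of 50. With 1 array left out they numbered from 0 to 105, members at an unadjusted p under 0.05 from 2 to 5, members with a higher signal from 7 to 8 and the members' median from 0.14 to 0.58. The cause was not tested.

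The labels number the replicates 1 and 2 in both groups, and with 2 pairs the numbers are not shown to pair the samples. Deviations from the group means of same-numbered arrays correlated across genes (r of 0.62), and 7 of 9 members, against 46.9% of all genes, had the higher signal on replicate 1 in both groups. With the replicate number as a block, which leaves 1 residual degree of freedom, 1458 genes were called (28.4%), and 37.7% had an unadjusted p under 0.05. Among the 9 members 5 were called and 7 had an unadjusted p under 0.05, and among the 47 related genes 10 were called (21.3%). The adjusted p values of limma with the block were 4.7e-07 for SMF3, 9.8e-07 for FET4, 0.00468 for FTR1, 0.0200 for CCC2 and 0.0232 for FET3. They rest almost wholly on the variance shared across genes, and a gene's own spread had little or no weight in them. They therefore do not measure that spread, of which 1 residual degree of freedom says little.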
